A study of Rattus norvegicus with 6 samples.

Results

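Krt10 and 9 other intermediate filament genes (Krt8, Krt18, Krt19, Krt7, Krt5, Krt14, Vim, Nes and Lmna) were described in GH4C1 cells, a rat pituitary line that makes growth hormone and prolactin. Every probe set annotated to 1 of these symbols alone was taken, which gave 11 probe sets for 10 of the 14217 genes measured, with 2 probe sets for Lmna and 1 for each of the others. Krt10 was chosen by its log2 signal difference in this same comparison and the others with its results known, so their fold changes and calls are a description and support nothing by themselves. Krt10 was higher in POU1F1(R271W) cells by 3.08-fold, Krt8 by less, and Krt18 overlapped between the groups. Vim lay below the signal of 11.2 used as a filter on all 6 arrays and Nes on 5 of them, so the label of vimentin filaments was not borne out by the signals: the bright members were Krt8, Krt18, Krt10 and 1 Lmna probe set.

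The tested cells carried a lentiviral vector with POU1F1(R271W), which the study's title calls a dominant negative mutant of this pituitary transcription factor, driven by the PGK promoter and followed by IRES-EGFP. The control arrays are labelled only as control, and the design text names EGFP alone behind the same promoter as the control vector. Both were transduced in 12-well plates at a multiplicity of infection of 5 for 16 h with 2 µg/ml polybrene, and RNA was taken after a further 4 days. Each group had 3 arrays, which the labels call biological replicates of 1 cell line. Separate transductions are not stated, so the p-values measure the spread between these samples, which may be technical, and nothing states that sorting removed untransduced cells. The cells also keep their own Pou1f1, and no probe set known to read the transgene was available to check the labels.

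Intermediate filaments are rope-like polymers that give a cell or its nucleus mechanical strength. Keratins assemble only as pairs of a type I chain (Krt10, Krt14, Krt18, Krt19) with a type II chain (Krt5, Krt7, Krt8), and the pair in use marks the kind of epithelium: Krt8 with Krt18 in simple and glandular epithelia, Krt5 with Krt14 in basal epidermis and Krt1 with Krt10 in its upper layers. Vimentin is the filament of mesenchymal cells, nestin that of progenitor cells, and lamins A and C, the products of Lmna, line the inside of the nucleus.

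The promoters of the 3 brightest keratin genes are shown because Krt10 was the member that differed most and Krt8 and Krt18 are the pair of simple epithelia. Each window runs from 250 bases before to 50 after the start in RefSeq on the GRCr8 build. Capitals mark matches, on either strand, to 1 of 5 short motifs that were picked after the promoters were read. Krt10 lies on the minus strand at chr10:84839111-84839410, Krt8 on the minus strand at chr7:135010290-135010589 and Krt18 on the plus strand at chr7:135035918-135036217.
Krt10: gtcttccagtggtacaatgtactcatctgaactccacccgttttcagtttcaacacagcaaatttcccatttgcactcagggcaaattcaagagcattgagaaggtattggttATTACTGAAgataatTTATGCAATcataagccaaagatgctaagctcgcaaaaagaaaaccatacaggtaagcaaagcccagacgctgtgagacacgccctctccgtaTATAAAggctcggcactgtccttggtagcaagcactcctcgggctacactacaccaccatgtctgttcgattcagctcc
Krt8: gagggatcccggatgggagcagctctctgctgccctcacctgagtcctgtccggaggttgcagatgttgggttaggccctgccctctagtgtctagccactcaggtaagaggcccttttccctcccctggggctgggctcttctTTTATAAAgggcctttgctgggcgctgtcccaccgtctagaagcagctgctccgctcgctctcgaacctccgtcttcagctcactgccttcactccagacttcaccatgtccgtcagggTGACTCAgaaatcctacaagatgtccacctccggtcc
Krt18: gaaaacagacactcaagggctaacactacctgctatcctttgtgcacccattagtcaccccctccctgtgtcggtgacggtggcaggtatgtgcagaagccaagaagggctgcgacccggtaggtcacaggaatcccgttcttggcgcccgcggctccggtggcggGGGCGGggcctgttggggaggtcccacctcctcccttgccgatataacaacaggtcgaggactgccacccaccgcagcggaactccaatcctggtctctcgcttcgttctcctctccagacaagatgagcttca

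A promoter window was available for 7 of the 10 genes. The Krt10 window held the TATA box letters TATAAA at position -29 from the start, and those letters were in 3 of the 7 member windows (Krt10, Krt8 and Vim) and in 14.2% of 33469 rat promoter windows. Krt10 was also the only member with the C/EBP letters TTNNGNAAT, at -137 and -122, which 12.3% of all windows held. Krt18 held the GC box letters GGGCGG at -84, found in 5 of 7 member windows and in 33.1% of all windows. Krt8 held the AP-1 letters TGANTCA at +14, after an ATG in the printed window and so possibly in coding sequence. These letters were in 2 of 7 member windows and 7.33% of all. The letters TATNCAT, used here for a POU1F1 half-site, matched in the Nes window alone, at -24, against 9.88% of all windows. Matches of this length describe the letters in a window and say nothing about binding.

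Signals are MAS5 values, an intensity per probe set on a linear scale in arbitrary units. Median signal over all probe sets was 26.9, 25.7 and 25.5 on the R271W arrays, against 22.9, 22.7 and 22.4 on the control arrays. The 18 probe sets of the hybridisation control spikes averaged 0.23 higher on the log2 scale on the R271W arrays. The median log2 signal over all probe sets was 0.20 higher there. A probe set was tested by limma if its mean log2 signal reached the array-wide 40th percentile, a signal of 11.2, and was called where the adjusted p over all 18625 tested probe sets was under 0.05. By that rule 15.8% of tested probe sets were called, 8.57% higher and 7.22% lower in R271W cells, and the median log2 change was 0.07. Counted as 1 probe set per gene, 9.87% of tested genes were higher and 8.98% lower. Gh1, the growth hormone gene, was at 6338 ± 867 in R271W cells and 6443 ± 348 in control cells (SD, n = 3 each), and Prl, the prolactin gene, and Pou1f1 were called lower, with log2 changes of -0.45 (adjusted p = 0.00048) and -0.33 (adjusted p = 0.00486). Both of these calls were lost in a fit without the intensity trend (adjusted p = 0.0583 for Prl and 0.107 for Pou1f1). The 3'/5' signal ratio of actin, a sign of RNA quality, was 1.86, 1.98 and 2.06 on the R271W arrays, against 1.81, 1.82 and 1.82 on the control arrays. The part of these array differences in the results was not tested, except for the difference in median signal, which the scaling alternatives address.

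Of the 11 member probe sets, 6 were tested, covering 5 genes (Krt10, Krt8, Krt18, Krt7 and Lmna), and 4 of these were above the filter signal on every array. Among the tested ones 2 were called higher, Krt10 and Krt8, and 0 lower. Of all 18625 tested probe sets 8.57% were called higher and 7.22% lower. By signal alone, 4 of the 11 probe sets did not overlap between groups, all with R271W above, where 24.5% of all 31042 probe sets did not overlap. Nothing is read from these shares because the same contrast chose the genes.

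Krt10, the type I keratin of differentiated epidermis, had signals of 887, 875 and 861 on the R271W arrays, against 317, 281 and 256 on the control arrays. Every R271W array was far above every control array, and the 3 R271W arrays lay within a narrow band. The means were 874 ± 13.1 in R271W cells and 285 ± 30.9 in control cells (SD, n = 3 each). Its log2 change was 1.62 (95% interval 1.43 to 1.82, limma adjusted p = 2.54e-07). Among all tested probe sets Krt10 ranked 7th by adjusted p and 149th by increase in log2 signal, so few had a smaller adjusted p and many had a larger increase. Among called probe sets its increase ranked 77th, and decreases were not ranked. A single probe set, 1373254_at, measured Krt10, and a RefSeq long noncoding locus overlaps the gene, so whether some signal came from that locus was not tested.

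Krt8, the type II keratin of simple epithelia, had signals of 1326, 1386 and 1417 on the R271W arrays, against 1078, 1223 and 1130.1 on the control arrays. The groups did not overlap, but the gap between the lowest R271W array and the highest control array was small beside the signals. The means were 1376 ± 46.7 in R271W cells and 1144 ± 73.1 in control cells, with a log2 change of 0.27 (95% interval 0.11 to 0.43, limma adjusted p = 0.0229). Median log2 signal was 0.20 higher on the R271W arrays, and Krt8 lay at the 98th percentile of mean log2 signal. The cause of the Krt8 change was not tested. With quantile normalization the Krt8 log2 change was larger, 0.40 (limma adjusted p = 0.000957). When each array was centred on its median the log2 change was 0.07 (adjusted p = 0.611), and with centring on the 75th percentile it was 0.19 (adjusted p = 0.142). A fit with no intensity trend gave an adjusted p of 0.167. Leaving out 1 array also ended the call in 3 cases: adjusted p was 0.0656 without R271W replicate 2, 0.104 without control replicate 1 and 0.0778 without control replicate 3.

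Krt18, the type I partner of Krt8, had signals of 1910.2, 1857 and 2273 on the R271W arrays, against 2065, 2081 and 2028 on the control arrays. The groups overlapped, and R271W replicate 3 lay above all control arrays while the other two R271W arrays lay below them. The means were 2014 ± 226 in R271W cells and 2058 ± 27.2 in control cells, with a log2 change of -0.04 (95% interval -0.21 to 0.13, limma adjusted p = 0.801). Its sign was not stable to scaling or to the arrays kept, with log2 changes between -0.24 and 0.07 over 17 alternatives, none of which passed.

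**Figure D1:**
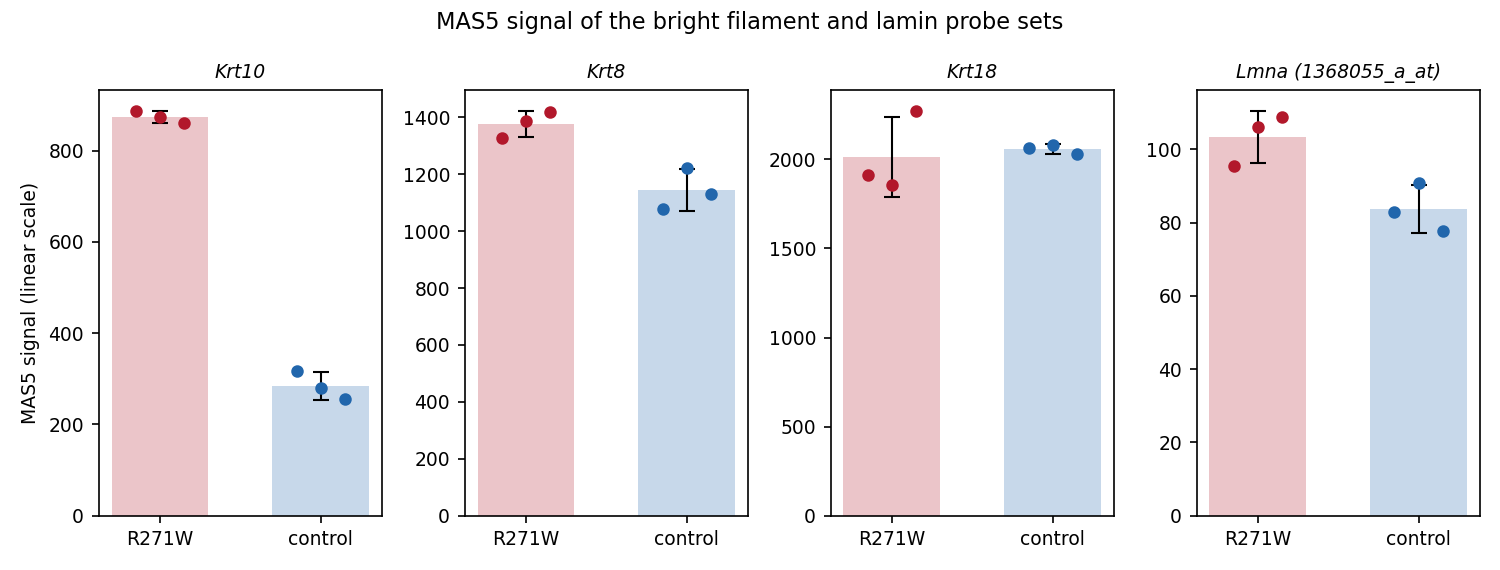
MAS5 signal (linear axes, arbitrary units) of Krt10, Krt8, Krt18 and the brighter Lmna probe set, 1 point per array, with bars for the mean and SD of the 3 R271W and the 3 control arrays. The R271W points of Krt10 sit at 861 to 887, all above the control points at 256 to 317, while those of Krt18 overlap.

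Because the arrays differed in median signal, ratios between members were also taken within each array, where a single scaling factor per array cancels. Scaling that depends on signal level, such as quantile normalization, does not cancel in such a ratio. The log2 ratio of Krt8 to Krt18 was -0.53, -0.42 and -0.68 on the R271W arrays, against -0.94, -0.77 and -0.84 on the control arrays. All R271W ratios were above all control ratios, with group means 0.31 apart. The log2 ratio of Krt10 to Krt8 was -0.58, -0.66 and -0.72 on the R271W arrays, against -1.77, -2.12 and -2.14 on the control arrays, a shift of 1.36. The difference in such a ratio restates the members' own log2 changes, subtracted from each other. It adds no support, since Krt10 was chosen by its change, and no test was run on it. Which probe set moved cannot be read from it, and its level has no meaning across probes.

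Lmna, which encodes lamins A and C, was read by 2 probe sets. The brighter one, 1368055_a_at, had signals of 95.4, 106 and 109 on the R271W arrays, against 82.8, 90.8 and 77.8 on the control arrays. The groups did not overlap, with means of 103 ± 7.08 in R271W cells and 83.8 ± 6.55 in control cells, but the log2 change of 0.30 did not pass (95% interval -0.02 to 0.63, limma adjusted p = 0.201). The dimmer one, 1368054_at, had signals of 5.996, 20.1 and 31.4 on the R271W arrays, against 15.0, 3.66 and 15.1 on the control arrays. These overlapped, and its log2 change of 0.73 had a 95% interval of -0.93 to 2.39 (adjusted p = 0.58).

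Krt7, a type II keratin of ducts and simple epithelia, was just bright enough to be tested, with signals of 11.1, 19.4 and 3.76 on the R271W arrays, against 8.03, 21.0 and 16.2 on the control arrays. The groups overlapped, and the log2 change of -0.58 had a 95% interval of -2.15 to 0.98 (limma adjusted p = 0.65). No detection calls came with the values, so a dim signal cannot be told from an absent transcript.

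**Figure D2:**
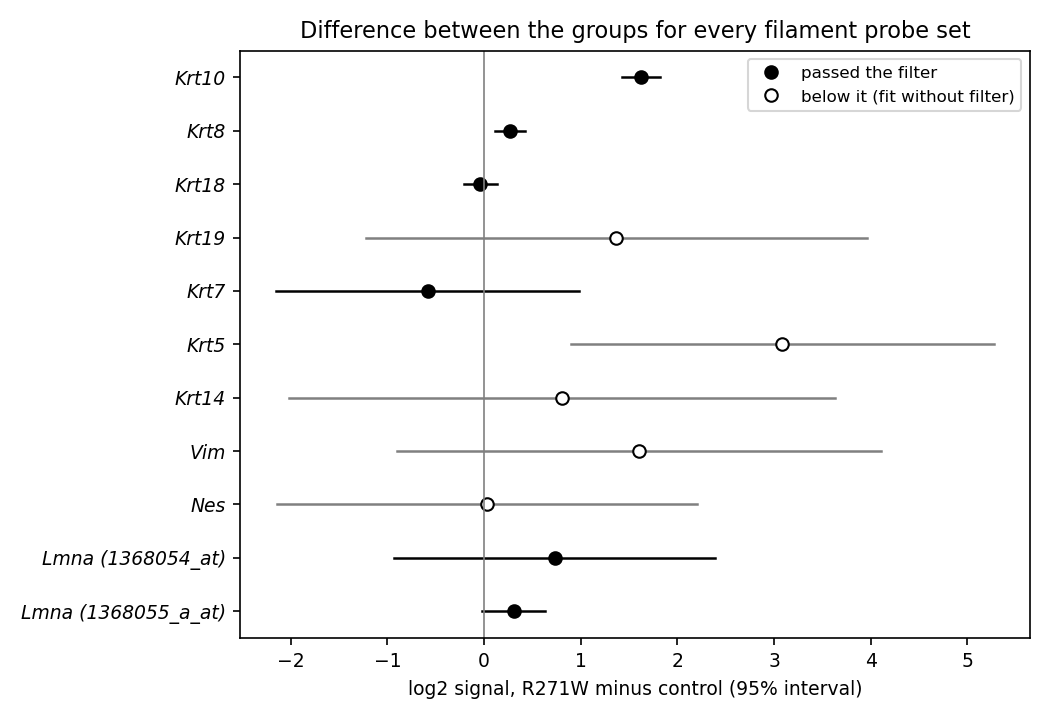
Log2 signal of R271W minus control for the 11 member probe sets, with 95% intervals from limma (open points: below the filter, fitted without one). Krt10 lies at 1.62 with an interval clear of 0, Krt8 at 0.27, and the dim probe sets have intervals several log2 units wide.

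The other 5 genes were below the filter and were fitted only when no filter was used. Krt5, the type II keratin of basal epidermis, had signals of 8.28, 14.1 and 23.7 on the R271W arrays, against 2.87, 1.73 and 0.903 on the control arrays. It was the one dim member whose groups did not overlap, with R271W above, and its log2 difference was 3.09 (95% interval 0.90 to 5.27, limma adjusted p = 0.0827 without a filter). That value depended on the lowest signals: with all signals floored at the 20th percentile, 3.72, it was 1.92. Krt14, its type I partner, had signals of 15.1, 1.27 and 6.11 on the R271W arrays, against 0.509, 10.99 and 3.91 on the control arrays. The Krt14 groups overlapped widely, so its log2 difference of 0.81 (adjusted p = 0.82 without a filter) was within the spread.

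Krt19, a small type I keratin of simple epithelia, had signals of 11.5, 1.22 and 0.697 on the R271W arrays, against 1.04, 0.525 and 1.04 on the control arrays. Only R271W replicate 1 stood away from the rest, and the log2 difference of 1.37 was 0.54 with the floor (adjusted p = 0.621 without a filter or floor). Vim had signals of 1.97, 0.962 and 9.79 on the R271W arrays, against 1.15, 0.549 and 1.04 on the control arrays. Here R271W replicate 3 was the high one, and the log2 difference of 1.61 was 0.47 with the floor (adjusted p = 0.521 without a filter or floor). Nes had signals of 3.60, 8.58 and 8.26 on the R271W arrays, against 6.35, 18.1 and 2.08 on the control arrays. Its groups overlapped, and the log2 difference was 0.03 without a floor and -0.23 with it (adjusted p = 0.993 without a filter or floor).

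**Figure D3:**
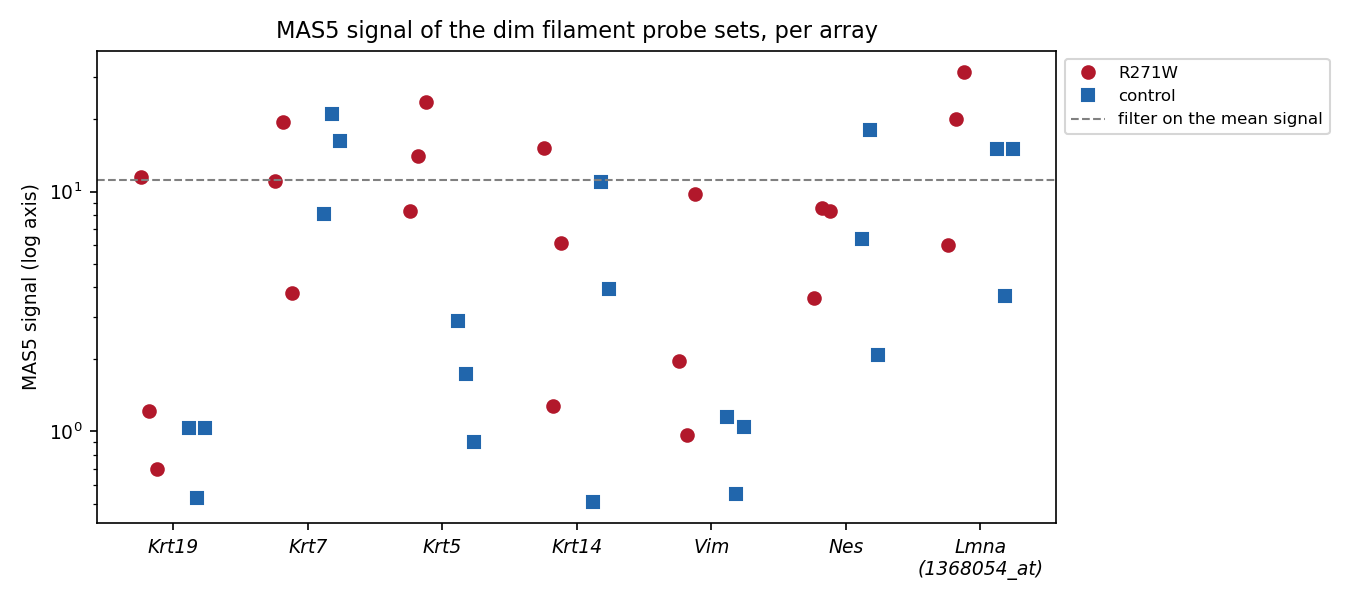
MAS5 signal of the dim member probe sets, 1 point per array on a log axis, with R271W left of control and a dashed line at the filter signal of 11.2. Krt5 is the one whose R271W points, 8.28 to 23.7, all lie above the control points, 0.903 to 2.87.

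The members differed in how closely arrays of 1 group resembled each other. The pooled SD of log2 signal within groups was 0.111 for Krt10, 0.0735 for Krt8, 0.113 for Krt18 and 0.107 for the brighter Lmna probe set. For the dim probe sets it was between 0.80 and 2.04. Across 17 alternatives of scaling, filtering, model or arrays, Krt10 was called in all 17, with log2 changes between 1.43 and 1.71 and adjusted p between 1.63e-08 and 0.0147. Krt8 was called in 11 of the 17, with log2 changes between 0.07 and 0.40 and adjusted p between 0.000957 and 0.611.

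**Figure D4:**
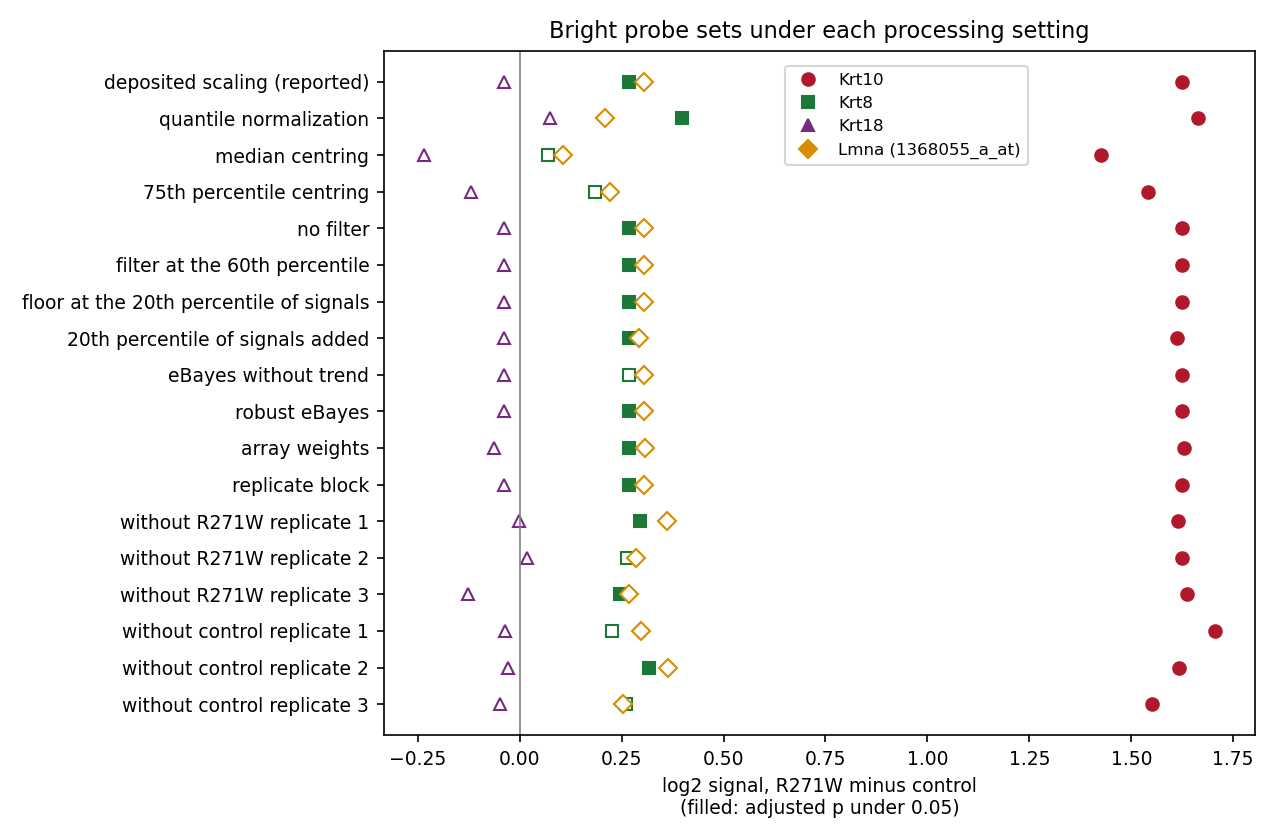
Log2 signal of R271W minus control for Krt10, Krt8, Krt18 and the brighter Lmna probe set under each setting, filled where the adjusted p was under 0.05. Krt10 stays between 1.43 and 1.71, Krt8 between 0.07 and 0.40, and Krt18 lies on both sides of 0.

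The other genes of the filament system were read from 6 lists holding 167 symbols. On the arrays 116 were measured and 66 tested, taking the brightest probe set of each gene. Of these 6 were higher and 6 lower in R271W cells, where 9.87% of all 10143 tested genes were higher and 8.98% lower. The same shares stand beside the counts of each list below. The median log2 change of these 66 genes was 0.01, beside 0.06 over all tested genes. Without the intensity trend 1 was higher, Krt20, and 2 lower, Tmem43 and Cebpb, so every other call in these lists was lost in that fit.

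Among the other keratins, 17 of 47 were measured and 7 tested, with 1 higher, 1 lower and a median log2 change of -0.02. Krt20, a type I keratin of intestinal and bladder epithelium that lies in the same gene cluster as Krt10, had signals of 176, 149 and 175 on the R271W arrays, against 87.6, 98.1 and 109 on the control arrays. It rose by 0.76 on the log2 scale (limma adjusted p = 0.00224), with no overlap between the groups. Krt79, a type II keratin of the hair follicle canal, had signals of 39.3, 19.1 and 25.3 on the R271W arrays, against 79.0, 61.7 and 59.9 on the control arrays. It fell, with a log2 change of -1.31 (adjusted p = 0.00714). Krt1, the type II partner with which Krt10 pairs in epidermis, had signals of 31.5, 13.5 and 11.2 on the R271W arrays, against 35.2, 31.8 and 40.6 on the control arrays. All R271W arrays were below all control arrays, opposite to Krt10, but the log2 change of -1.09 did not pass (adjusted p = 0.0957).

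Of 17 other intermediate filament genes 15 were measured and 11 tested, with 3 higher, 0 lower and a median log2 change of 0.05. Nefm, the medium neurofilament chain, was at 691 ± 86.0 in R271W cells and 400.2 ± 60.5 in control cells and rose by 0.79 on the log2 scale (adjusted p = 0.00055). Nefh, the heavy chain, had a log2 change of 0.29 that did not pass (adjusted p = 0.0621). Iffo1, an intermediate filament family orphan, was at 78.6 ± 15.3 in R271W cells and 20.9 ± 13.9 in control cells (log2 change 2.18, adjusted p = 0.00562), while its other probe sets were below the filter at 0.83 and 0.96. The size of the Iffo1 change rested on 1 control array: the log2 change was 1.52 without control replicate 2 (adjusted p = 0.00453). Sync, syncoilin, a muscle filament protein, passed narrowly with a log2 change of 0.32 (adjusted p = 0.0499) and kept the call in 7 of 17 alternatives. The Sync call was lost without R271W replicate 2 (adjusted p = 0.0747), R271W replicate 3 (0.122), control replicate 1 (0.18), control replicate 2 (0.0937) or control replicate 3 (0.072). The B-type lamins did not pass, with log2 changes of 0.05 for Lmnb1 (adjusted p = 0.753) and -0.18 for Lmnb2 (adjusted p = 0.552).

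The linkers and desmosome genes, which tie filaments to each other and to cell junctions, had 22 of 25 measured and 14 tested, with 1 higher, 0 lower and a median log2 change of 0.35. Jup, plakoglobin, a junction protein shared by desmosomes and adherens junctions, was at 212 ± 29.5 in R271W cells and 133 ± 17.4 in control cells and rose by 0.67 on the log2 scale (adjusted p = 0.00505). Plec, the large linker plectin, had a log2 change of 0.01 (adjusted p = 0.987).

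Of the 25 lamina and nuclear envelope genes all were measured and 22 tested, with 0 higher, 3 lower and a median log2 change of -0.17. Tmem43, an inner nuclear membrane protein, was at 316 ± 18.2 in R271W cells and 453 ± 14.7 in control cells and fell by 0.52 on the log2 scale (adjusted p = 0.00138). Banf1, which bridges DNA to the lamina, was at 691 ± 20.6 in R271W cells and 910.4 ± 73.4 in control cells (log2 change -0.40, adjusted p = 0.00448). Tmpo, which encodes the lamina-associated LAP2 proteins, was at 227 ± 25.7 in R271W cells and 297 ± 17.8 in control cells (log2 change -0.40, adjusted p = 0.0257). The Tmpo call was lost on leaving out R271W replicate 1 (adjusted p = 0.0856), R271W replicate 2 (0.0808), control replicate 2 (0.103) or control replicate 3 (0.0637), and its other probe set had a log2 change of -0.29 (adjusted p = 0.499). Emd, emerin, a lamin-binding protein, had a log2 change of -0.33 that did not pass (adjusted p = 0.0873), and Zmpste24, the protease that matures lamin A, had one of 0.07 (adjusted p = 0.874).

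Among regulators of epithelial and mesenchymal state, 18 of 25 were measured and 8 tested, with 1 higher, 2 lower and a median log2 change of -0.05. Cebpb, the transcription factor C/EBP beta, was at 331 ± 46.3 in R271W cells and 582 ± 56.3 in control cells and fell by 0.82 on the log2 scale (adjusted p = 0.000258). Esrp1, an epithelial splicing factor, was at 558 ± 42.8 in R271W cells and 699 ± 27.0 in control cells (log2 change -0.33, adjusted p = 0.0167). Its call was lost without R271W replicate 1 (adjusted p = 0.0617), R271W replicate 2 (0.0504), control replicate 1 (0.0626) or control replicate 2 (0.0639). Klf5, an epithelial transcription factor, was at 510.1 ± 20.9 in R271W cells and 379 ± 23.8 in control cells and rose by 0.43 on the log2 scale (adjusted p = 0.00426). With each array centred on its median the Klf5 log2 change was 0.23 and the call was lost (adjusted p = 0.0994). The other Klf5 probe sets did not follow: 2 that were tested had log2 changes of -0.06 (adjusted p = 0.865) and 0.26 (adjusted p = 0.352), and 1 below the filter was at -0.27.

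The cornified envelope list, genes of the epidermal layers in which Krt10 is best known, had 20 of 30 measured and 5 tested, with 0 higher, 0 lower and a median log2 change of -0.22. Its summed signal was 190.7 to 252 on the R271W arrays and 197 to 251.3 on the control arrays. The tested genes with positive log2 changes were Cnfn (1.73, limma adjusted p = 0.101) and Dmkn (0.13, adjusted p = 0.87). Those with negative ones were Krt1 (-1.09, adjusted p = 0.0957), Tgm3 (-0.50, adjusted p = 0.159) and Calml5 (-0.22, adjusted p = 0.82). Below the filter, the groups did not overlap for Krtdap, higher in R271W cells (log2 difference 2.24), and Sprr1a, lower (-1.79). Ivl, involucrin, was at 6.74 ± 5.07 in R271W cells and 9.93 ± 0.774 in control cells, and Tgm1, the enzyme that cross-links the envelope, at 4.12 ± 4.93 in R271W cells and 2.75 ± 2.11 in control cells, both under the filter.

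**Figure D5:**
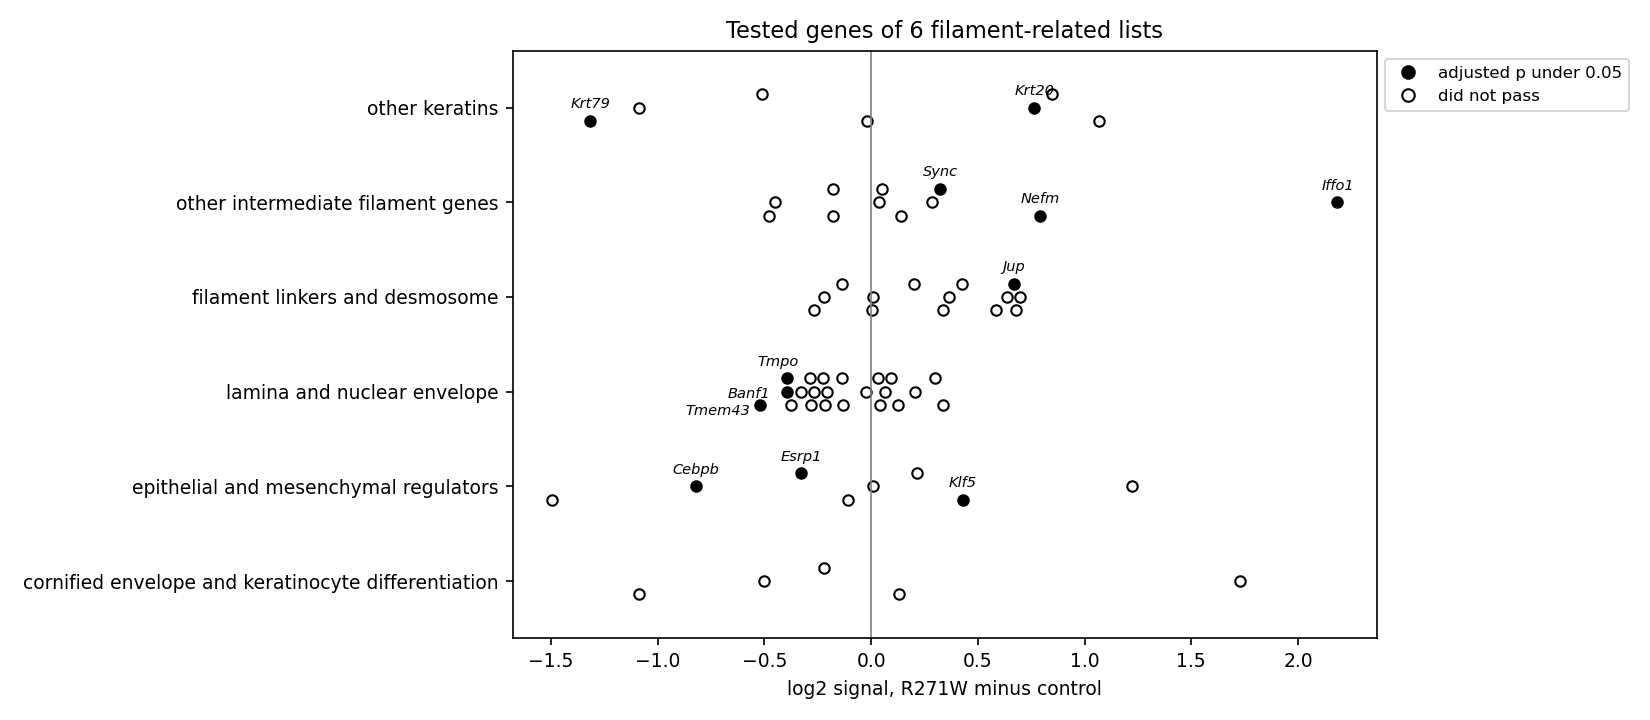
Log2 signal of R271W minus control for the tested genes of 6 lists related to filaments, 1 point per gene, filled where the adjusted p was under 0.05. The lists hold 6 filled points on each side of 0, and the lamina list has its 3 filled points on the lower side. Over all tested genes 9.87% were called higher and 8.98% lower.

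Epithelial markers other than keratins were measured for all 6 genes and tested for 3, none of which was called. Epcam, an adhesion molecule of epithelial cells, was at 1641 ± 69.9 in R271W cells and 1763 ± 28.6 in control cells (log2 change -0.10, limma adjusted p = 0.326). Cdh1, the epithelial cadherin, was dim at 1.27 in R271W cells and 3.58 in control cells. Most markers of other cell types were below the filter: 1 of 7 fibroblast genes, 0 of 3 endothelial genes, 1 of 4 leukocyte genes and 2 of 8 genes of other pituitary cells were tested, and none was called. The fibroblast genes summed to 188 to 212 on the R271W arrays and 219 to 244 on the control arrays, and the endothelial genes to 10.6 to 34.9 on the R271W arrays and 6.67 to 28.0 on the control arrays. The leukocyte genes summed to 32.6 to 54.0 on the R271W arrays and 24.1 to 34.7 on the control arrays, and the other pituitary genes to 74.3 to 92.1 on the R271W arrays and 64.7 to 93.1 on the control arrays. The part of these markers in the filament differences was not tested. The fibroblast sum was mostly Thy1, which was above the filter on all 6 arrays at 157.6 in R271W cells and 179.8 in control cells, and no marker was at exactly 0.

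The genes whose pattern over the 6 arrays was nearest to Krt10 were ranked by the root mean square difference of centred log2 signals. They were Tppp3 (0.085), a tubulin-binding protein, Hspb6 (0.086), a small heat shock protein, Mecom (0.099), a zinc-finger transcription factor, Ccng2 (0.133), cyclin G2, and Trim8 (0.137), a ubiquitin ligase of the TRIM family. Tppp3, the nearest, had signals of 362, 329 and 356 on the R271W arrays, against 119, 122 and 110.1 on the control arrays. Likeness here is mostly the shared difference between the groups, since log2 changes of the 5 genes were between 1.42 and 1.78 beside 1.62 for Krt10.

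On chromosome 10, where Krt10 lies among type I keratin genes, the 5 nearest measured genes on each side were Igfbp4, Tns4, Smarce1, Krt24 and Krt25, and Krt12, Krt20, Krt23, Krtap1-5 and Krtap1-1. Only 3 of these 10 were tested, Igfbp4, Smarce1 and Krt20. Krt20 alone was called, and Smarce1 had a log2 change of 0.19 (limma adjusted p = 0.109). Over all tested genes 9.87% were called higher and 8.98% lower. On chromosome 7, Krt8 and Krt18 are direct neighbours, near Krt79 and Krt1 of the type II cluster. The 5 nearest measured genes on each side of Krt8 were Krt71, Krt1, Krt4, Krt79 and Krt78, and Krt18, Eif4b, Tns2, Spryd3 and Igfbp6. Krt71, Krt4 and Krt78 were below the filter. Of the tested neighbours Krt79 alone was called, lower, while Krt8 itself was called higher. The same shares over all tested genes apply here, and nothing is read from so few neighbours.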

How the data were processed

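The deposited values are intensity values, 1 MAS5 signal per probe set and array on a linear scale, per the submitters' processing notes, and neither a version of MAS5 nor detection calls were at hand. The mean of each array after trimming 2% at each end was 100. Signals were log2 transformed without further scaling. Of 31042 non-control probe sets, 18625 whose mean log2 signal was at or above the 40th percentile were fitted with limma 3.58.1 in R 4.3.3 (lmFit, then eBayes with an intensity trend), 3 R271W against 3 control arrays, two-sided, with Benjamini-Hochberg adjustment. Fold changes are ratios of geometric means. Python 3.11.15 and matplotlib 3.10.9 made the tables and plots.

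Symbols came from the platform annotation, updated by Entrez ID through RefSeq for GRCr8: 20826 probe sets had 1 symbol, 436 several and 9780 none, and no member lay among the several. Promoters came from RefSeq. The members and lists were chosen with earlier results of these data known. Genes named were all members, up to 4 called genes per list whose groups did not overlap, the 5 nearest to Krt10, and further partner, neighbour and marker genes chosen after their values were seen. Per gene the brightest probe set was used. The number of arrays limits precision, and no scan date or slide was available to test as a batch. The scripts were tested on simulated data.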

Additional observations from a re-analysis of the deposited data

How the results depend on the processing

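The comparison was repeated under 17 alternatives, counting each of the 6 arrays left out in turn. With the deposited scaling 1596 probe sets were higher and 1344 lower. Centring on the array median gave 730 higher and 3132 lower and moved the median log2 change of tested probe sets by -0.20, centring on the 75th percentile gave 1124 higher and 1923 lower, and eBayes without a trend gave 634 higher and 431 lower. Leaving out 1 array gave 1000 to 1346 higher and 945 to 1327 lower. The member probe sets called higher were 2, and 1 under median centring, under 75th percentile centring and without a trend, Krt8 being the one lost, and 1 to 2 on leaving out 1 array, with 0 to 0 lower. The listed filament genes called were 6 higher and 6 lower, with 14 lower under median centring, 1 higher and 2 lower without a trend, and 5 to 8 higher and 4 to 7 lower on leaving out 1 array. Averaging the probe sets of each listed gene gave 4 higher and 5 lower. The causes were not tested. Without a trend the calls of Krt8, Krt79, Nefm, Iffo1, Sync, Jup, Banf1, Tmpo, Klf5, Esrp1, Prl and Pou1f1 among the named genes were lost, and those of Krt10, Krt20, Tmem43 and Cebpb held in all 17.

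Replicate numbers are shared by the groups, but arrays with the same number did not deviate together (r = -0.002, 0.01 and -0.02). The reported fit did not pair them, and whether samples with the same number were handled together is not stated. A fit with the replicate block gave 1336 higher and 1143 lower probe sets, with 2 member probe sets and 6 and 6 listed genes called. Signal near background limits Krt5, Krt7, Krt14, Krt19, Vim, Nes and the dimmer Lmna probe set.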
